A study of Homo sapiens with 21 samples.

Results

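The genes described here are 49 genes of excision repair, mismatch repair and end joining, taken by symbol from a table of 28395 genes. They comprise 18 genes of nucleotide excision repair, 5 of mismatch repair, 17 of base excision repair and 9 of non-homologous end joining. The genes were listed by function, with earlier results of these data known. RNA was measured in Hs578T, an established triple-negative breast cancer (TNBC) cell line, 8 h after treatment. The 7 groups of 3 replicates were DMSO, THZ531 at 0.1 μM, lapatinib at 3.16 μM, nilotinib at 1.0 μM, the combination of either inhibitor at that dose with 0.1 μM THZ531, and THZ531 at 1.0 μM. THZ531 is an inhibitor of the transcriptional kinases CDK12 and CDK13, which act on elongating RNA polymerase II, and lapatinib and nilotinib are tyrosine kinase inhibitors. No genetic change is given for any group, so the data describe treatments of 1 cell line at 1 time point. The samples of a group came from 3 independent experiments, and the p-values measure the spread between them.

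Each of these pathways removes a different kind of DNA lesion. Nucleotide excision repair cuts out a short strand around bulky damage, which XPC and the DDB proteins recognise across the genome and the proteins encoded by ERCC6, ERCC8 and UVSSA recognise where RNA polymerase II has stalled. Mismatch repair corrects replication errors with MutS-type sensors and MutL-type partners. Base excision repair removes small base lesions through glycosylases, an AP endonuclease, a polymerase and a ligase, and end joining seals double-strand breaks through the Ku proteins, DNA-PK and the LIG4 complex. Loss of CDK12 activity is known for lowering the expression of DNA damage response genes.

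The promoters of 4 genes that mark the range of responses are shown, as the 250 bases before the transcription start in RefSeq (GRCh38.p14), on the gene's own strand. Those of ERCC4 (chr16:13919904-13920153, plus strand) and NEIL3 (chr4:177309624-177309873, plus strand) belong to genes that fell steeply, and those of PARP1 (chr1:226408094-226408343, minus strand) and XRCC6 (chr22:41621045-41621294, plus strand) to genes that rose relative to other mRNAs. Capitals mark matches, on either strand, to 6 sets of letters: the GC box GGGCGG, the CCAAT box CCAAT, the TATA box TATAAA, the ETS core CCGGAAG, the E2F-type TTCCCGC and the NRF1-type TGCGCA.
ERCC4: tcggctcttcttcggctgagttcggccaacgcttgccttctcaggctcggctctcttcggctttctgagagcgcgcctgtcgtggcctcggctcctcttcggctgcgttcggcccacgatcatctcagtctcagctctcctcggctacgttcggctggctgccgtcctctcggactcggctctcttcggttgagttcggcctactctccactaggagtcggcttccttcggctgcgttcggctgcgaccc
NEIL3: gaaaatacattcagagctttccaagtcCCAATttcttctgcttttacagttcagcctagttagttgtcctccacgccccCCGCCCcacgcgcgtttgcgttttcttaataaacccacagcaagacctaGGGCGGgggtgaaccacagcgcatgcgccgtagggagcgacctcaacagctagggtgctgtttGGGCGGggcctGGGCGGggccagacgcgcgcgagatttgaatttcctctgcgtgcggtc
PARP1: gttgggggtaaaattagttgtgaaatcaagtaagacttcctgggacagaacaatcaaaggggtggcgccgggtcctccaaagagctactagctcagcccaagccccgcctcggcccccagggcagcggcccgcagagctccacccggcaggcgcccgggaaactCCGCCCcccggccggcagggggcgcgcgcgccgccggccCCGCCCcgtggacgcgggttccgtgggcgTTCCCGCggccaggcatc
XRCC6: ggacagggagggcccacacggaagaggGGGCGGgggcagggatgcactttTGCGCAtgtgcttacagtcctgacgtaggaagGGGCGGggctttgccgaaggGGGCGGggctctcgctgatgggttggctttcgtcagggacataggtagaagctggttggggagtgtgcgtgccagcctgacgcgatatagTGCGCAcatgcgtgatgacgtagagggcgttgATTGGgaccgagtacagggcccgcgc

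The ERCC4 window holds none of these letters, that of NEIL3 holds 5 matches, that of PARP1 3 and that of XRCC6 6. A match is a description of the letters and not a site. RefSeq listed a promoter for 44 of the 49 genes, and those of XRCC5, PRKDC, NEIL2, POLB and SMUG1 were not used here. For 13 genes more than 1 start was listed, so that a gene can have several windows. Of the 24 genes with a promoter that were lower in both combinations and with 1.0 μM THZ531, 17 (70.8%) held a GC box in at least 1 window, against 70.7% of 12271 genes tested, and all 6 genes higher in these 3 treatments did. Counted by window, these shares were 22 of 35 (62.9%), 60.1% of 17677 windows and 6 of 8. The ETS core was found in 7 of the 24 genes (29.2%), in 0 of the 6 and in 17.1% of all, and in 10 of the 35 windows (28.6%), 0 of the 8 and 12.7% of all.

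The total count per library was between 97612207 and 112229052 (median 104639800), and the correlation of log2 CPM (counts scaled by the library total) between replicates of a group was 0.990 to 0.994. The mesenchymal genes that mark Hs578T were abundant, with VIM between 6390 and 10100 CPM over the 21 libraries and the other 4 markers at 185 CPM (ZEB1) or more. The receptor and epithelial genes were near 0, with at most 0.502 CPM for ESR1, 0.035 for PGR, 0.368 for CDH1 and 0.0875 for EPCAM, whereas ERBB2 lay between 24.0 and 42.0 CPM. Markers of leukocytes, endothelium and liver reached at most 2.45 CPM for PTPRC, 0.605 for PECAM1 and 0.105 for ALB. The 13 mRNAs encoded by the mitochondrial genome took 1.19% to 1.35% of the counts in the DMSO libraries, 1.49% to 1.76% in the lapatinib combination, 1.45% to 1.68% in the nilotinib combination and 1.36% to 1.78% with 1.0 μM THZ531. Their share was 1.30% to 1.51% with lapatinib alone, 1.27% to 1.56% with nilotinib alone and 1.14% to 1.27% with 0.1 μM THZ531. All levels below are relative to the other mRNAs of a library, scaled by the trimmed mean of M values (TMM). Fewer cells and less RNA per cell cannot be told apart in such data.

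Of the 49 genes, 48 had enough counts to be tested. The exception was GTF2H4, a TFIIH subunit gene, which was listed at 0 counts in all 21 libraries. Its annotated exons share 79.74% of their bases with another gene model, and its level was not assessed. Low counts were also found for NEIL1 (4 to 50 counts per library), GTF2H2 (13 to 343) and ERCC5 (36 to 122). ERCC5 shares 32.97% of its exonic bases with the readthrough gene BIVM-ERCC5. Reads of GTF2H2 and of PMS2 can be shared with near-identical copies elsewhere in the genome, so that their values are uncertain. The libraries do not mark strand, and reads of XPC cannot be told apart from those of the antisense gene XPC-AS1 over 24.59% of its exonic bases. A larger share of exonic bases overlapped other gene models for MUTYH (40.08%), LIG3 (30.49%), NEIL1 (30.47%) and OGG1 (28.98%). The same held for TP53BP1 (28.76%), ERCC1 (28.57%), XRCC1 (28.2%) and NHEJ1 (25.88%). How reads in shared exons were counted is not given.

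Levels per length differed widely in the DMSO libraries, given here as mean CPM per kb of annotated exon. The genes of the Ku heterodimer were the most abundant, XRCC6 with 141 and XRCC5 with 106, followed by the AP endonuclease gene APEX1 with 104, the XPC partner gene RAD23B with 62.0 and the flap nuclease gene FEN1 with 47.3. Lowest were NEIL1 with 0.0367, ERCC5 with 0.0879, GTF2H2 with 0.413, ERCC6 with 0.539 and ERCC8 with 0.544. The last 2 of these did not differ beyond the spread of their replicates. In mismatch repair the MutS partners MSH6 (7.24) and MSH3 (5.32) lay above the MutL partners PMS1 (2.14), PMS2 (2.04) and MLH3 (1.47). Annotated exons include those of rare transcripts, so this order is approximate.

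To ask whether 0.1 μM THZ531 or either inhibitor acted on these genes by itself, each single treatment was compared with DMSO. Genes were called at a Benjamini-Hochberg adjusted p under 0.05 in the quasi-likelihood test of edgeR, with all 16036 genes tested in the adjustment, and FC denotes fold change, given with its standard error (SE). With 0.1 μM THZ531, 5 of the 48 genes were lower, against 4.31% of all genes, and 1 was higher, against 1.78%. The incision nuclease gene ERCC4 fell by 0.62 ± 0.11 on the log2 scale (adjusted p = 0.00221), from 17.1 ± 0.88 CPM (mean ± SD, n = 3) to 11.1 ± 0.174 CPM, and the groups did not overlap. The MutL partner gene PMS1 fell by 0.58 ± 0.10 (adjusted p = 0.00146), from 11.7 ± 0.818 to 7.80 ± 0.629 CPM, again without overlap. Both calls remained in all of the alternative settings.

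The other falls with 0.1 μM THZ531 were less stable. They were those of MUTYH, an adenine glycosylase gene, with a log2 FC of −0.55 ± 0.14 (8.65 ± 0.303 to 5.91 ± 0.234 CPM), GTF2H1, a TFIIH subunit gene, with −0.37 ± 0.07 (82.2 ± 4.61 to 63.7 ± 3.05 CPM), and the damage sensor gene XPC with −0.34 ± 0.09 (15.5 ± 1.03 to 12.2 ± 1.33 CPM). NHEJ1, which encodes the ligation cofactor XLF, was higher with 0.30 ± 0.07, at 16.9 to 17.2 CPM against 13.4 to 14.6 CPM. In all, 18 of the 48 genes had an unadjusted p under 0.05, against 3085 of all 16036 genes. The number called lower was between 2 and 13 in other settings. It was 3 without DMSO replicate 2 and without replicate 1 or 2 of 0.1 μM THZ531, and 8 without nilotinib replicate 1. The calls of XPC, MUTYH and NHEJ1 were each lost without any 1 of several libraries of these groups, and that of NHEJ1 without DMSO replicate 1 or 2 or any replicate of 0.1 μM THZ531.

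With lapatinib alone, edgeR called 0 of the 48 genes lower and 0 higher, against 0.0561% and 0.256% of all genes. An unadjusted p under 0.05 was found for 6 of the 48, against 1148 of all 16036 genes. With nilotinib alone edgeR also called 0 lower and 0 higher, against 0.0998% and 0.243%. Here 5 of the 48 had an unadjusted p under 0.05, against 1550 of all 16036 genes. DESeq2 called 0 with lapatinib and 1 with nilotinib, the TFIIH helicase gene ERCC2, whose log2 FC in edgeR was 0.20 ± 0.06. Setting aside NEIL1 and ERCC5, with their low counts, the log2 FC of the genes was between −0.21 ± 0.08 (FEN1) and 0.24 ± 0.08 (MLH3) with lapatinib, and between −0.27 ± 0.11 (TDG) and 0.33 ± 0.12 (NTHL1) with nilotinib.

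Both combinations and 1.0 μM THZ531 changed most of these genes, with many falls of more than 2-fold and no rise of that size. With the lapatinib combination 30 of the 48 genes were lower and 9 higher, against 37.8% and 34.3% of all genes. The nilotinib combination gave 29 lower and 11 higher, against 37.3% and 33.7%, and 1.0 μM THZ531 gave 28 lower and 11 higher, against 36.8% and 33.1%. As shares of the 48 genes, 62.5, 60.4 and 58.3% were lower and 18.8, 22.9 and 22.9% higher. Beyond a log2 FC of 1, 19, 18 and 13 genes were lower, which is 39.6, 37.5 and 27.1%, against 21.3%, 20.8% and 18.9% of all genes. No gene of the 48 was higher in that range, since the highest log2 FC was 0.68, 0.71 and 0.71, against 7.9%, 6.54% and 5.77% of all genes called higher beyond 1. The median log2 FC of the 48 genes was −0.71, −0.54 and −0.48, and that of all genes was −0.01 each time. These 3 comparisons share the DMSO libraries.

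In all 3 treatments 26 of the 48 genes were lower, against 30.8% of all genes, and 8 were higher, against 27.2%, the latter being DDB1, GTF2H5, RAD23B, LIG1, PARP1, PRKDC, XRCC5 and XRCC6. A further 5 genes, DDB2, ERCC1, NTHL1, OGG1 and POLB, were not called in any of them. The rises depend on the scaling. When libraries were scaled to the 13 mitochondrial mRNAs, the median of all genes shifted to −0.69, −0.63 and −0.55, and the highest log2 FC of the 48 genes was −0.01, 0.10 and 0.17, none of them called. Of the genes called higher with TMM, 9 of 9, 7 of 11 and 8 of 11 then had a negative log2 FC. Relative to the shifted median, the log2 FC in the lapatinib combination was 0.68 for XRCC6 and 0.65 for PARP1. Scaling to these mRNAs also moved the median of all genes with lapatinib alone and nilotinib alone, to −0.15 and −0.18.

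**Figure D1:**
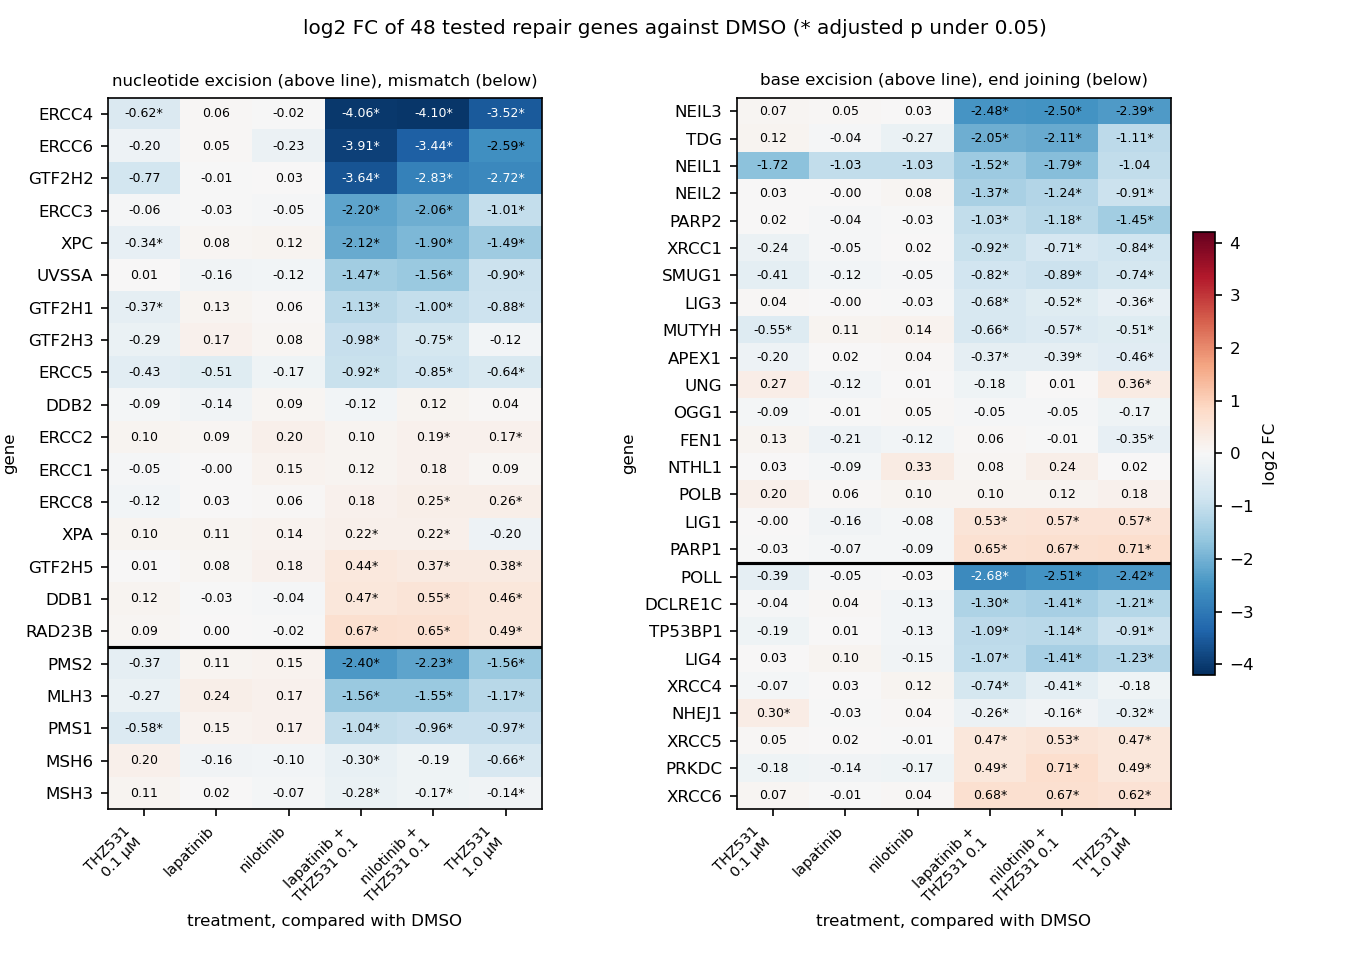
Heat map of the log2 FC against DMSO (colour and printed value) of the 48 tested repair genes (rows) in the 6 treatments (columns), with nucleotide excision above mismatch genes on the left and base excision above end-joining genes on the right. Asterisks mark an adjusted p under 0.05 in edgeR, and they lie mainly in the 3 right-hand columns of each panel, with ERCC4 the lowest at −4.10 and no asterisk for lapatinib or nilotinib alone.

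The counts by pathway are set beside all genes, of which 37.8%, 37.3% and 36.8% were lower and 34.3%, 33.7% and 33.1% higher. Among the genes listed for mismatch repair, 0 of 5 were higher in the 3 treatments. All 5 were lower with the lapatinib combination, 4 of 5 with the nilotinib combination and 5 with 1.0 μM THZ531, with medians of −1.04, −0.96 and −0.97. Of the 17 nucleotide excision genes tested, 9, 9 and 8 were lower (52.9, 52.9 and 47.1%) and 4, 6 and 5 higher (23.5, 35.3 and 29.4%). Their medians were −0.92, −0.75 and −0.20. Of the 17 base excision genes, 10 were lower in each treatment (58.8%) and 2, 2 and 3 were higher (11.8, 11.8 and 17.6%), with medians of −0.66, −0.52 and −0.46. Of the 9 end-joining genes, 6, 6 and 5 were lower (66.7, 66.7 and 55.6%) and 3 were higher each time (33.3%), with medians of −0.74, −0.41 and −0.32. The spread within a pathway exceeded these differences between medians. In the lapatinib combination the nucleotide excision genes ran from −4.06 to 0.67, the mismatch genes from −2.40 to −0.28, the base excision genes from −2.48 to 0.65 and the end-joining genes from −2.68 to 0.68. The difference between pathways was not tested.

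Nucleotide excision repair held the largest falls. ERCC4 (chromosome 16, 13920154 to 13952348, plus strand, RefSeq, GRCh38.p14) encodes XPF, the nuclease that cuts on the 5′ side of the lesion. Its levels were 17.7, 16.1 and 17.4 CPM in the DMSO libraries and 0.961, 0.842 and 1.26 CPM with the lapatinib combination. They were 1.13, 1.00 and 0.836 CPM with the nilotinib combination and 1.43, 1.23 and 1.82 CPM with 1.0 μM THZ531. Every library of the 3 treatments was below every DMSO library, and the log2 FC was −4.06 ± 0.14, −4.10 ± 0.14 and −3.52 ± 0.13 (adjusted p = 2.83e-15, 2.82e-15 and 3.22e-14). The XPF partner gene ERCC1 was not called in the 3 treatments, with 87.8 to 94.0 CPM in DMSO and 89.0 to 110 CPM in the lapatinib combination (log2 FC 0.12 ± 0.09), and it was called higher in the nilotinib combination only without lapatinib combination replicate 1 or nilotinib combination replicate 3. The 3′ nuclease gene ERCC5, at 0.855 to 1.04 CPM in DMSO, had a log2 FC of −0.92 ± 0.24, −0.85 ± 0.24 and −0.64 ± 0.24, and its call with 1.0 μM THZ531 was lost without replicate 2 or 3 of either group.

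Among the genes of transcription-coupled repair, ERCC6 (chromosome 10, 49434881 to 49539538, minus strand) encodes the ATPase CSB and spans 104.7 kb. It was at 12.7, 13.8 and 10.8 CPM in DMSO and at 0.699, 0.864 and 0.924 CPM with the lapatinib combination. With the nilotinib combination it was at 1.04, 1.06 and 1.34 CPM, and with 1.0 μM THZ531 at 2.45, 1.81 and 1.95 CPM. Both combinations lay below 1.0 μM THZ531 without overlap, and all 3 below DMSO, with a log2 FC of −3.91 ± 0.15, −3.44 ± 0.14 and −2.59 ± 0.13 (adjusted p = 1.37e-14, 5.06e-14 and 2.2e-12). UVSSA, whose protein stabilises CSB, fell with a log2 FC of −1.47 ± 0.10, −1.56 ± 0.10 and −0.90 ± 0.10. ERCC8, which encodes the ubiquitin ligase subunit CSA, had a log2 FC of 0.18 ± 0.10, 0.25 ± 0.10 and 0.26 ± 0.10, called in the last 2, and those calls were lost without DMSO replicate 2, among others.

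In global recognition, the sensor gene XPC fell with a log2 FC of −2.12 ± 0.10, −1.90 ± 0.10 and −1.49 ± 0.10, from 14.6 to 16.6 CPM in DMSO to 3.38 to 3.77 CPM with the lapatinib combination. RAD23B, whose protein binds XPC, moved the other way. It was at 295, 279 and 283 CPM in DMSO, 437, 467 and 462 CPM with the lapatinib combination, 436, 445 and 467 CPM with the nilotinib combination and 428, 374 and 401 CPM with 1.0 μM THZ531. The libraries of all 3 treatments were above those of DMSO, with a log2 FC of 0.67 ± 0.05, 0.65 ± 0.05 and 0.49 ± 0.05 (adjusted p = 5.93e-10, 9.71e-10 and 8.24e-08). Scaled to the mitochondrial mRNAs, these values became −0.02, 0.03 and −0.06. DDB1, an adaptor of a ubiquitin ligase, had 0.47 ± 0.07, 0.55 ± 0.07 and 0.46 ± 0.07 (−0.22, −0.07 and −0.08 in that scaling), and its partner DDB2 had −0.12 ± 0.08, 0.12 ± 0.08 and 0.04 ± 0.08, not called. XPA, which verifies damage, had 0.22 ± 0.09, 0.22 ± 0.09 and −0.20 ± 0.09, called higher in the combinations and called lower with 1.0 μM THZ531 only without its replicate 3 or DMSO replicate 3. Those XPA calls were lost without DMSO replicate 1 or 3, lapatinib combination replicate 2 or nilotinib combination replicate 2 or 3, and their direction turned with library-size scaling.

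The genes of TFIIH, the helicase complex that opens DNA for repair and for transcription, did not move together. ERCC3, the XPB helicase gene, fell with a log2 FC of −2.20 ± 0.12, −2.06 ± 0.12 and −1.01 ± 0.11, whereas ERCC2, the XPD helicase gene, had a log2 FC of 0.10 ± 0.06, 0.19 ± 0.06 and 0.17 ± 0.06. The last 2 of these ERCC2 values were called higher, turned negative with library-size scaling, and lost their call without nilotinib combination replicate 1 and DMSO replicate 1, respectively. The core subunit gene GTF2H1 fell with a log2 FC of −1.13 ± 0.08, −1.0 ± 0.08 and −0.88 ± 0.07. GTF2H3 fell with a log2 FC of −0.98 ± 0.10 and −0.75 ± 0.10 in the combinations, and with 1.0 μM THZ531 its log2 FC was −0.12 ± 0.10. GTF2H2 fell with a log2 FC of −3.64 ± 0.41, −2.83 ± 0.38 and −2.72 ± 0.37, from 2.52 to 2.77 CPM in DMSO to 0.175 to 0.234 CPM with the lapatinib combination. In the nilotinib combination its replicates were at 0.227, 0.140 and 0.737 CPM, and without replicate 3 the log2 FC was −3.82. With 1.0 μM THZ531 they were at 0.273, 0.566 and 0.353 CPM. The small subunit gene GTF2H5 was higher, with 0.44 ± 0.10, 0.37 ± 0.10 and 0.38 ± 0.10, values that turned to −0.24, −0.26 and −0.16 in the mitochondrial scaling.

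In mismatch repair the MutL partners fell further than the MutS partners. PMS2 (chromosome 7, 5970925 to 6009106, minus strand) encodes the endonuclease subunit of the main MutL complex. It was at 23.3, 24.0 and 21.5 CPM in DMSO and at 3.63, 4.45 and 4.98 CPM with the lapatinib combination. With the nilotinib combination it was at 4.44, 4.41 and 5.77 CPM, and with 1.0 μM THZ531 at 8.26, 7.99 and 7.0 CPM. All treated libraries were below DMSO, with a log2 FC of −2.40 ± 0.12, −2.23 ± 0.12 and −1.56 ± 0.12 (adjusted p = 1.04e-12, 2.8e-12 and 5.16e-10). MLH3, a further MutL subunit gene, went from 13.4, 12.5 and 11.0 CPM in DMSO to 4.23, 3.83 and 4.50 CPM with the lapatinib combination. It was at 4.10, 3.97 and 4.55 CPM with the nilotinib combination and at 5.59, 5.27 and 5.52 CPM with 1.0 μM THZ531. These groups did not overlap with DMSO either, and the log2 FC was −1.56 ± 0.09, −1.55 ± 0.09 and −1.17 ± 0.09 (adjusted p = 3.36e-12, 3.88e-12 and 2.78e-10). PMS1 fell with a log2 FC of −1.04 ± 0.10, −0.96 ± 0.10 and −0.97 ± 0.10.

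MSH3, the sensor subunit gene for larger loops, has the longest span of the 5 mismatch genes, 222.2 kb on chromosome 5. It was at 28.6, 27.8 and 28.6 CPM in DMSO, 24.4, 22.7 and 22.7 CPM with the lapatinib combination, 26.1, 25.3 and 24.0 CPM with the nilotinib combination and 27.0, 24.8 and 25.3 CPM with 1.0 μM THZ531. The treated libraries lay below DMSO by a small margin, with a log2 FC of −0.28 ± 0.06, −0.17 ± 0.06 and −0.14 ± 0.06 (adjusted p = 0.000248, 0.0139 and 0.0413). The call with 1.0 μM THZ531 was lost without any 1 of 9 libraries, among them DMSO replicates 1 and 3 and replicates 2 and 3 of 1.0 μM THZ531, the value was 0.06 with upper-quartile scaling, and the call with the nilotinib combination was lost without its replicate 3. MSH6, the sensor subunit gene for single mismatches, had −0.30 ± 0.13, −0.19 ± 0.13 and −0.66 ± 0.13, called in the first and last. The first of these calls was lost without any 1 of 14 libraries, all 3 DMSO libraries included. With 1.0 μM THZ531, replicate 2 stood at 57.7 CPM of MSH6 and replicates 1 and 3 at 92.2 and 94.3 CPM, and without replicate 2 the log2 FC was −0.46.

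**Figure D2:**
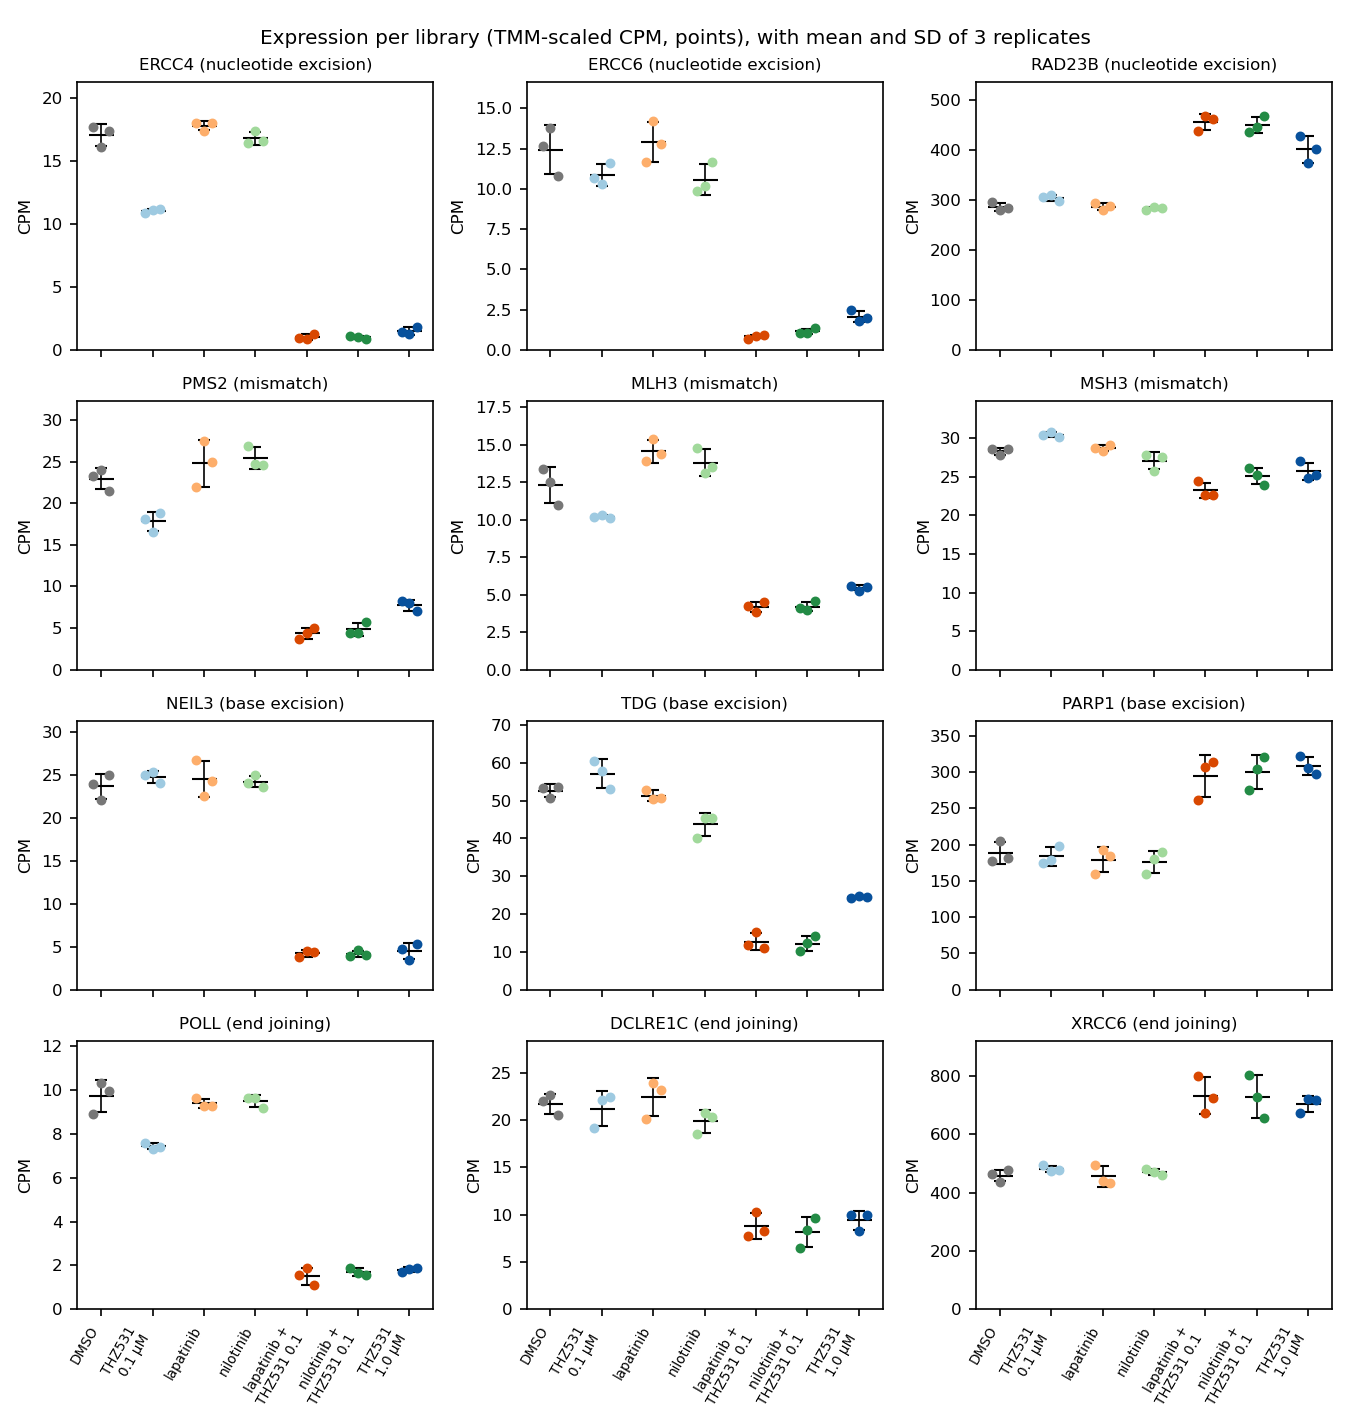
TMM-scaled CPM (y axis, from 0) of 12 repair genes in each of the 21 libraries (points), by treatment (x axis), with the mean and SD of 3 replicates as bars. ERCC4, ERCC6, PMS2, MLH3, NEIL3, TDG, POLL and DCLRE1C sit lower in the 3 groups on the right of each panel than in DMSO, MSH3 lies slightly lower, and RAD23B, PARP1 and XRCC6 sit higher. With scaling to the mitochondrial mRNAs these rises are not called in any of the 3 treatments, and all are negative in the lapatinib combination.

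In base excision repair, the glycosylase genes had both the largest falls and several genes without a call. NEIL3 (chromosome 4, 177309874 to 177371268, plus strand) encodes a glycosylase for oxidised bases and crosslinks. Its levels were 23.9, 22.1 and 24.9 CPM in DMSO and 3.78, 4.52 and 4.39 CPM with the lapatinib combination. They were 3.95, 4.56 and 3.98 CPM with the nilotinib combination and 4.76, 3.47 and 5.30 CPM with 1.0 μM THZ531. The log2 FC was −2.48 ± 0.12, −2.50 ± 0.12 and −2.39 ± 0.12 (adjusted p = 3.46e-13, 3.3e-13 and 1.11e-12), and the 3 treatments overlapped with each other and not with DMSO. TDG, which excises thymine and oxidised methylcytosine opposite guanine, was at 53.4, 50.7 and 53.7 CPM in DMSO and 11.8, 15.2 and 11.0 CPM with the lapatinib combination. It was at 10.2, 12.2 and 14.1 CPM with the nilotinib combination and 24.1, 24.7 and 24.5 CPM with 1.0 μM THZ531. In contrast to NEIL3, the combinations lay below 1.0 μM THZ531 without overlap, and the log2 FC against DMSO was −2.05 ± 0.11, −2.11 ± 0.11 and −1.11 ± 0.11 (adjusted p = 2.65e-12, 1.99e-12 and 2.36e-08).

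NEIL2, an oxidised base glycosylase gene, fell with a log2 FC of −1.37 ± 0.07, −1.24 ± 0.07 and −0.91 ± 0.07, and SMUG1, a uracil glycosylase gene, with −0.82 ± 0.13, −0.89 ± 0.13 and −0.74 ± 0.13. MUTYH fell as well (log2 FC −0.66 ± 0.14, −0.57 ± 0.14 and −0.51 ± 0.14). NEIL1 was called lower in both combinations, at 0.0765 to 0.109 and 0.0648 to 0.088 CPM against 0.145 to 0.431 CPM, and neither call remained without DMSO replicate 2, where the log2 FC went from −1.52 to −0.91 and from −1.79 to −1.18. UNG, the main uracil glycosylase gene, had −0.18 ± 0.09 and 0.01 ± 0.09 in the combinations, called lower with lapatinib only without DMSO replicate 2 or lapatinib combination replicate 1, and was called higher with 1.0 μM THZ531 (0.36 ± 0.09), a value that became −0.18 in the mitochondrial scaling. OGG1, which removes oxidised purines, had −0.05 ± 0.09, −0.05 ± 0.09 and −0.17 ± 0.09, and NTHL1, which removes oxidised pyrimidines, had 0.08 ± 0.12, 0.24 ± 0.12 and 0.02 ± 0.12. The repair polymerase gene POLB had 0.10 ± 0.10, 0.12 ± 0.10 and 0.18 ± 0.10, and these 3 genes were not called, apart from OGG1 with 1.0 μM THZ531 when its replicate 2 was left out (−0.24).

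The poly(ADP-ribose) polymerase genes went in opposite directions. PARP1, the main sensor of strand breaks, was at 177, 205 and 181 CPM in DMSO, 261, 307 and 314 CPM with the lapatinib combination, 275, 304 and 321 CPM with the nilotinib combination and 322, 306 and 297 CPM with 1.0 μM THZ531. The treated libraries lay above DMSO, with a log2 FC of 0.65 ± 0.09, 0.67 ± 0.09 and 0.71 ± 0.09 (adjusted p = 2.31e-06, 1.42e-06 and 7.16e-07), and of −0.04, 0.05 and 0.17 in the mitochondrial scaling. PARP2 fell with a log2 FC of −1.03 ± 0.12, −1.18 ± 0.12 and −1.45 ± 0.12. The genes of the ligation step differed as well, since the replicative ligase gene LIG1 had 0.53 ± 0.07, 0.57 ± 0.07 and 0.57 ± 0.07 (−0.15, −0.05 and 0.03 in that scaling), whereas LIG3 fell with −0.68 ± 0.08, −0.52 ± 0.08 and −0.36 ± 0.08 and the gene of its scaffold, XRCC1, with −0.92 ± 0.08, −0.71 ± 0.08 and −0.84 ± 0.08. APEX1, which cuts abasic sites, fell with a log2 FC of −0.37 ± 0.06, −0.39 ± 0.06 and −0.46 ± 0.06. The flap nuclease gene FEN1 had 0.06 ± 0.08 and −0.01 ± 0.08 in the combinations and −0.35 ± 0.08 with 1.0 μM THZ531, where it was called lower.

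In end joining, the 3 genes of DNA-PK were higher in all 3 treatments with TMM scaling. They were 33.3% of the end-joining genes, close to the 34.3%, 33.7% and 33.1% of all genes called higher. XRCC6, which encodes Ku70, was at 462, 437 and 476 CPM in DMSO, 799, 672 and 725 CPM with the lapatinib combination, 804, 728 and 654 CPM with the nilotinib combination and 671, 722 and 718 CPM with 1.0 μM THZ531. Its log2 FC was 0.68 ± 0.07, 0.67 ± 0.07 and 0.62 ± 0.07 with no overlap with DMSO (adjusted p = 8.32e-08, 1.02e-07 and 3.43e-07), and −0.01, 0.05 and 0.08 in the mitochondrial scaling. XRCC5, which encodes Ku80, had 0.47 ± 0.08, 0.53 ± 0.08 and 0.47 ± 0.08 (−0.21, −0.09 and −0.08 in that scaling). PRKDC, the catalytic subunit gene, had 0.49 ± 0.06, 0.71 ± 0.06 and 0.49 ± 0.06 (−0.19, 0.10 and −0.05).

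The other 6 end-joining genes were all lower in both combinations, and 5 of them with 1.0 μM THZ531. POLL (chromosome 10, 101578882 to 101588270, minus strand), a gap-filling polymerase gene, was at 8.91, 10.3 and 9.96 CPM in DMSO and at 1.56, 1.88 and 1.10 CPM with the lapatinib combination. It was at 1.90, 1.65 and 1.56 CPM with the nilotinib combination and at 1.70, 1.83 and 1.90 CPM with 1.0 μM THZ531. The log2 FC was −2.68 ± 0.13, −2.51 ± 0.13 and −2.42 ± 0.13 (adjusted p = 3.86e-13, 9.14e-13 and 2.39e-12), and no treated library overlapped with DMSO. DCLRE1C, which encodes the end-trimming nuclease Artemis, went from 22.0, 22.6 and 20.5 CPM to 7.73, 10.3 and 8.32 CPM with the lapatinib combination. It was at 6.49, 8.38 and 9.68 CPM with the nilotinib combination and 9.99, 8.27 and 9.97 CPM with 1.0 μM THZ531. The treated libraries were all below DMSO and overlapped with each other, with a log2 FC of −1.30 ± 0.13, −1.41 ± 0.13 and −1.21 ± 0.13 (adjusted p = 1.96e-08, 7.11e-09 and 7.02e-08).

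The ligase gene LIG4 fell with a log2 FC of −1.07 ± 0.12, −1.41 ± 0.12 and −1.23 ± 0.12. Its partner XRCC4, with the longest span of the 49 genes (296.9 kb), fell with a log2 FC of −0.74 ± 0.09 and −0.41 ± 0.09 in the combinations and had −0.18 ± 0.09 with 1.0 μM THZ531, called lower there only without replicate 2 (−0.29). NHEJ1 had −0.26 ± 0.07, −0.16 ± 0.07 and −0.32 ± 0.07, and its call in the nilotinib combination was lost without any 1 of 16 libraries. TP53BP1, which protects ends from resection, fell with a log2 FC of −1.09 ± 0.08, −1.14 ± 0.08 and −0.91 ± 0.08.

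Several of these proteins act as pairs, and the ratio of the read counts of a pair within a library does not depend on how libraries are scaled. The pairs were chosen after their values were seen, and the ratios are given as a description. The mean ratio of ERCC4 to ERCC1 was 0.188 ± 0.0125 (SD, n = 3) in DMSO and 0.126 ± 0.00468 with 0.1 μM THZ531, and 0.0104 ± 0.0023, 0.00961 ± 0.000604 and 0.0155 ± 0.00343 in the lapatinib combination, the nilotinib combination and 1.0 μM THZ531. These last values are 18.37, 19.59 and 12.35-fold below DMSO. ERCC1 shares 28.57% of its exonic bases with POLR1G, so its counts in these ratios are uncertain. The ratio of XPC to RAD23B went from 0.0542 ± 0.00461 in DMSO to 0.00779 ± 0.000355, 0.00923 ± 0.000428 and 0.0139 ± 0.00191. That of ERCC6 to ERCC8 went from 0.88 ± 0.202 to 0.052 ± 0.013, 0.0678 ± 0.0167 and 0.121 ± 0.0246. The TFIIH helicase genes diverged too, since ERCC3 to ERCC2 was 0.369 ± 0.00062 in DMSO and 0.0748 ± 0.00808, 0.0776 ± 0.00548 and 0.163 ± 0.0301 in the 3 treatments. PARP2 to PARP1 went from 0.181 ± 0.0121 to 0.0563 ± 0.00464, 0.0496 ± 0.00379 and 0.0401 ± 0.0065. In each of these 5 pairs the 3 treatments did not overlap with DMSO.

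Among other pairs, XRCC5 to XRCC6 and LIG3 to XRCC1 changed less, although their 3 treatments did not overlap with DMSO either. XRCC5 to XRCC6 was 1.27 ± 0.0121 in DMSO and 1.1 ± 0.0309, 1.15 ± 0.0376 and 1.14 ± 0.0251 in the 3 treatments. LIG3 to XRCC1 was 0.652 ± 0.0263 in DMSO and 0.763 ± 0.0428, 0.745 ± 0.0496 and 0.907 ± 0.0557. LIG4 to XRCC4 was 0.938 ± 0.0611 in DMSO and 0.75 ± 0.114, 0.475 ± 0.0997 and 0.462 ± 0.102. These values are 1.26, 2.0 and 2.07-fold below DMSO, and only the lapatinib combination overlapped with it. PMS2 to PMS1 was 1.97 ± 0.228 in DMSO and 0.775 ± 0.167, 0.826 ± 0.192 and 1.31 ± 0.137, without overlap. A ratio shows unequal change of the partners and not which of them changed.

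**Figure D3:**
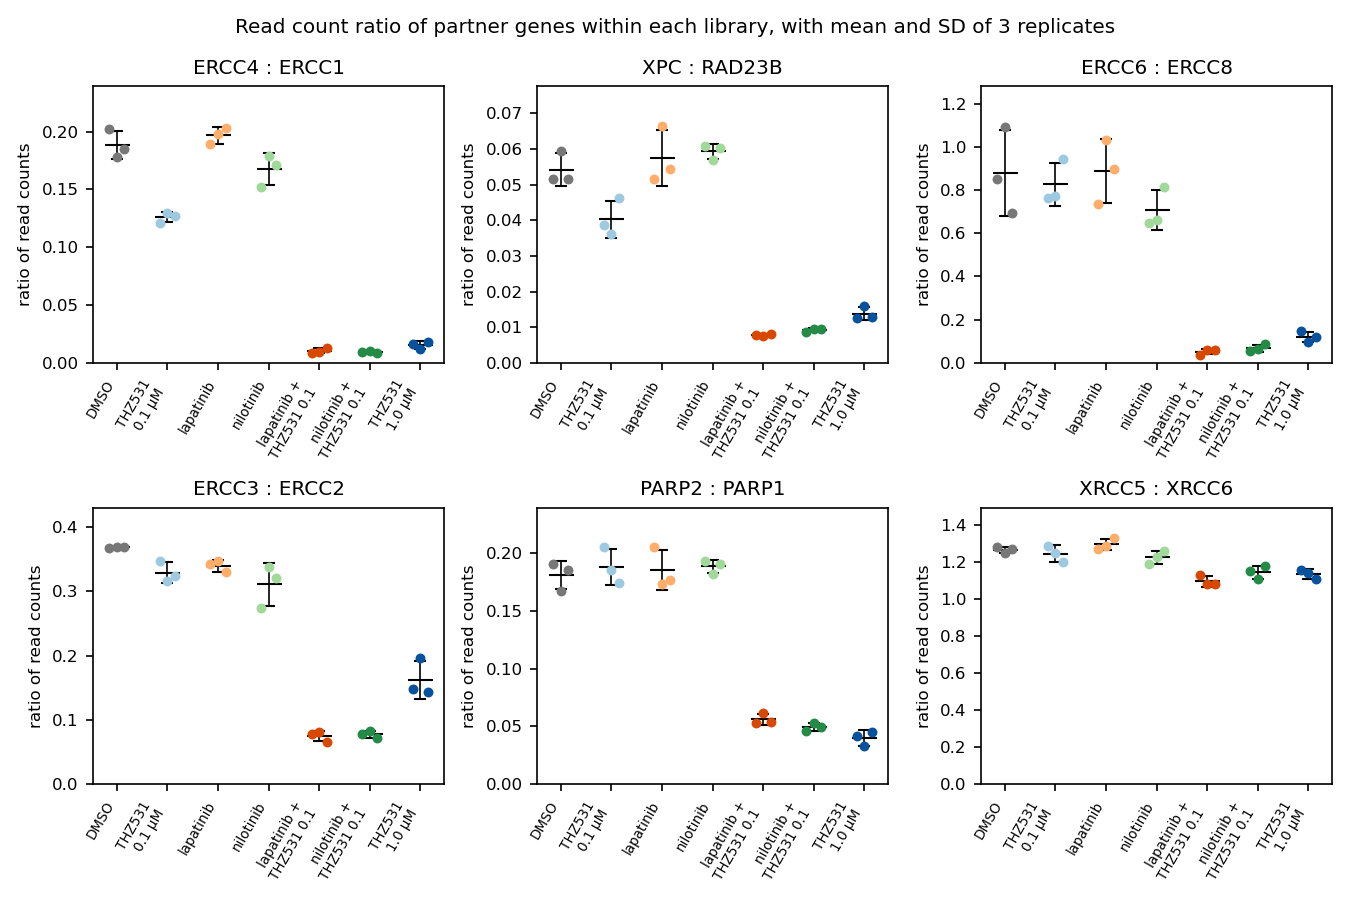
Ratio of the read counts of 6 gene pairs within each library (points, y axis from 0), by treatment (x axis), with the mean and SD of 3 replicates as bars. ERCC4 to ERCC1, XPC to RAD23B, ERCC6 to ERCC8, ERCC3 to ERCC2 and PARP2 to PARP1 lie far lower in the 3 groups on the right than in DMSO, and XRCC5 to XRCC6 goes from 1.27 to between 1.10 and 1.15.

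To ask whether the effect of THZ531 depended on its dose, 1.0 μM was compared with 0.1 μM. Of the 48 genes, 27 were lower at the higher dose and 9 higher, against 35.9% and 34.3% of all genes. ERCC4 was the lowest, with a log2 FC of −2.89 ± 0.13, followed by NEIL3 (−2.46 ± 0.12), ERCC6 (−2.39 ± 0.13) and POLL (−2.03 ± 0.13).

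Each combination was next compared with 1.0 μM THZ531, which sets 0.1 μM THZ531 with an inhibitor beside a higher dose without one. In the lapatinib combination 14 of the 48 genes were lower and 4 higher than with 1.0 μM THZ531, against 16.1% and 12.8% of all genes. In the nilotinib combination 12 were lower and 5 higher, against 13.0% and 11.2%. Both comparisons share the libraries of 1.0 μM THZ531. ERCC6 was at −1.32 ± 0.15 in the lapatinib and −0.85 ± 0.15 in the nilotinib combination, and ERCC3 at −1.20 ± 0.12 and −1.05 ± 0.12. TDG was at −0.95 ± 0.11 and −1.01 ± 0.11, GTF2H3 at −0.86 ± 0.10 and −0.63 ± 0.10 and PMS2 at −0.83 ± 0.12 and −0.67 ± 0.12. XPC was at −0.64 ± 0.10 and −0.41 ± 0.10, UVSSA at −0.57 ± 0.10 and −0.66 ± 0.10, ERCC4 at −0.55 ± 0.14 and −0.59 ± 0.14 and UNG at −0.54 ± 0.09 and −0.35 ± 0.09. The ERCC4 call in the lapatinib combination was lost without replicate 3 of 1.0 μM THZ531 (−0.38), and the UNG call in the nilotinib combination without replicate 2 of that combination (−0.30). XRCC4 was lower in the lapatinib combination (−0.55 ± 0.09), and its −0.23 ± 0.09 in the nilotinib combination was not called.

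XPA and FEN1 were higher in both combinations than with 1.0 μM THZ531, XPA by 0.42 ± 0.09 and 0.41 ± 0.09 and FEN1 by 0.41 ± 0.08 and 0.33 ± 0.08. PARP2 was called higher in the lapatinib combination (0.42 ± 0.12), MSH6 (0.46 ± 0.13) and PRKDC (0.22 ± 0.06) in the nilotinib combination and RAD23B (0.18 ± 0.05 and 0.17 ± 0.05) in both. The calls of PARP2, MSH6 and RAD23B were lost without replicate 2 of 1.0 μM THZ531, where PARP2 had 0.29, MSH6 0.27 and RAD23B 0.14 and 0.12. The number of genes called higher was then 2 and 3, and it was 2 without lapatinib combination replicate 2 and 3 without nilotinib combination replicate 3. With the mitochondrial scaling no gene was called higher in either comparison.

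**Figure D4:**
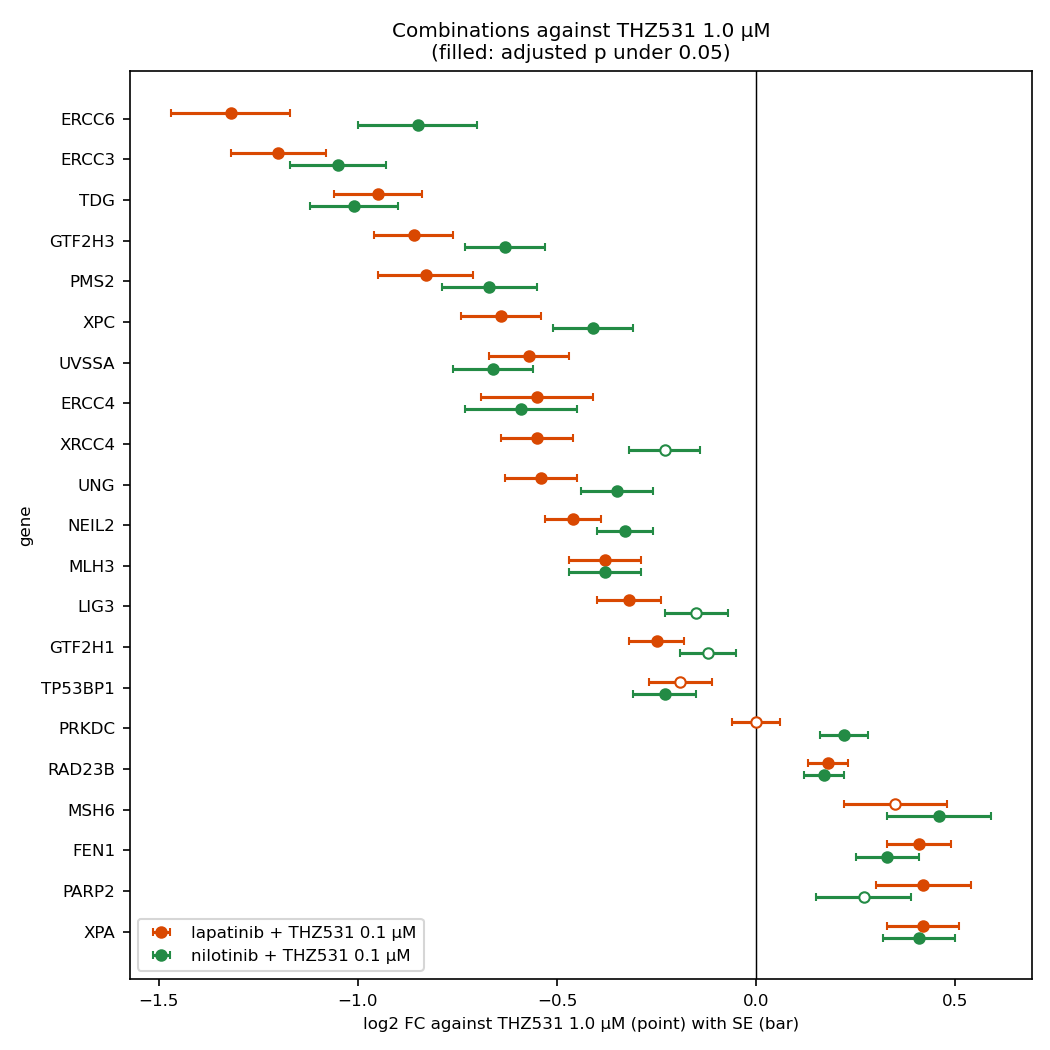
log2 FC of the 21 repair genes called in at least 1 of both comparisons (rows) in the lapatinib combination (orange) and the nilotinib combination (green) against 1.0 μM THZ531 (x axis), with SE bars and filled points for an adjusted p under 0.05. The lowest points are those of ERCC6 and ERCC3 in the lapatinib combination, and XPA and FEN1 lie above 0 in both, with calls that are lost in the mitochondrial scaling.

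Between the lapatinib and the nilotinib combination, edgeR called 0 of the 48 genes lower and 0 higher, against 0.736% and 0.73% of all genes. An unadjusted p under 0.05 was found for 9 of the 48, against 2006 of all 16036 genes. PRKDC was the nearest to the threshold, with a log2 FC of −0.22 ± 0.06 (adjusted p = 0.052), followed by XRCC4 with −0.33 ± 0.09 (adjusted p = 0.0867), and DESeq2 called these 2 genes lower. The number called lower by edgeR was 1 without DMSO replicate 2 or 3, nilotinib replicate 1 or 1.0 μM THZ531 replicate 1, and 2 without 1.0 μM THZ531 replicate 2.

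Whether an inhibitor acted differently in the presence of 0.1 μM THZ531 was tested by an interaction, the log2 FC of the combination against 0.1 μM THZ531 minus that of the inhibitor against DMSO. With lapatinib 25 of the 48 genes had a negative and 8 a positive interaction, against 32.0% and 28.2% of all genes. With nilotinib 25 were negative and 7 positive, against 31.2% and 25.6%. For ERCC6 the interaction was −3.76 ± 0.19 with lapatinib and −3.01 ± 0.19 with nilotinib, and for ERCC4 it was −3.50 ± 0.17 and −3.45 ± 0.17. NEIL3 had −2.60 ± 0.16 and −2.60 ± 0.16 and POLL −2.24 ± 0.17 and −2.09 ± 0.17. The tests of both interactions share the DMSO and 0.1 μM THZ531 libraries.

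The remaining genes of the 4 pathways were taken from a second list of 49 genes, of which 48 were matched and tested. With the lapatinib combination 24 of them were lower and 19 higher, which is 50.0 and 39.6% against 37.8% and 34.3% of all genes, and the median log2 FC was −0.18. With the nilotinib combination 22 were lower and 21 higher (45.8 and 43.8% against 37.3% and 33.7%, median −0.14), and with 1.0 μM THZ531 22 were lower and 19 higher (45.8 and 39.6% against 36.8% and 33.1%, median −0.12). Beyond a log2 FC of 1, 13, 12 and 12 were lower, which is 27.1, 25 and 25% against 21.3%, 20.8% and 18.9% of all genes. By pathway in the lapatinib combination, 4 of 13 nucleotide excision genes were lower and 7 higher, 5 of 12 mismatch genes lower and 5 higher, 8 of 13 base excision genes lower and 5 higher, and 7 of 10 end-joining genes lower and 2 higher. Of the same 12 mismatch genes, 6 and 5 were higher in the nilotinib combination and with 1.0 μM THZ531, and the medians were 0.10, 0.17 and 0.05 in the 3 treatments. Of the end-joining genes, PAXX, which encodes a Ku-associated factor, was higher with 0.64 ± 0.09, 0.62 ± 0.09 and 0.62 ± 0.09 in the 3 treatments, values that became −0.04, 0.01 and 0.09 in the mitochondrial scaling. MAD2L2 was also called higher in each, with 0.44 ± 0.13, 0.43 ± 0.13 and 0.35 ± 0.13 in TMM scaling. In contrast, SHLD1 had −1.30 ± 0.16, −1.55 ± 0.16 and −1.49 ± 0.16, and SHLD2 −1.78 ± 0.09, −1.71 ± 0.09 and −1.67 ± 0.09. With the mitochondrial scaling 0 of the 48 genes of the second list were called higher in any of the 3 treatments. In that scaling 30, 29 and 29 were called lower, while the median of all genes was −0.69, −0.63 and −0.55. The share of all genes called in that scaling is not given here, so these numbers are not read as particular to the list. With TMM scaling, the lowest 3 in the lapatinib combination were the mismatch repair exonuclease gene EXO1 (−2.27 ± 0.09), the TFIIH-associated kinase gene CDK7 (−2.01 ± 0.52) and TDP1, which clears adducts from DNA ends (−1.88 ± 0.07). The highest 3 were the chromatin protein gene HMGB1 (0.96 ± 0.07) and the sliding clamp gene PCNA (0.95 ± 0.09), both listed for mismatch repair, and the polymerase epsilon subunit gene POLE4 (0.86 ± 0.11). The CDK7 value is uncertain, since its SE is large. CDK7 already had −0.98 ± 0.48 with lapatinib alone and −1.05 ± 0.48 with nilotinib alone, neither of them called.

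Features that the list did not use were then set beside the direction of change. Level per length was taken from the libraries of lapatinib alone and nilotinib alone, which enter none of the comparisons of the combinations or of 1.0 μM THZ531 with DMSO. The 26 genes lower in all 3 treatments had a median of 2.16 CPM per kb (0.0699 to 106) and the 8 higher genes a median of 22.5 (2.26 to 143), and the median of 15273 annotated genes was 2.73. The median gene span was 32.9 kb for the 26 lower genes, 48.2 kb for the 8 higher genes and 28.5 kb for the annotated genes. Across the 48 genes the log2 FC of the lapatinib combination had a Spearman's rho of 0.51 with the level per kb and 0.13 with the span, whereas over the 15273 genes rho was 0.05 and −0.18. With the density of the polyadenylation hexamer AATAAA on the gene's strand rho was −0.08 over the 48 genes and −0.07 over all. These correlations are across genes, which share their libraries and are not independent, and they are given as descriptions.

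**Figure D5:**
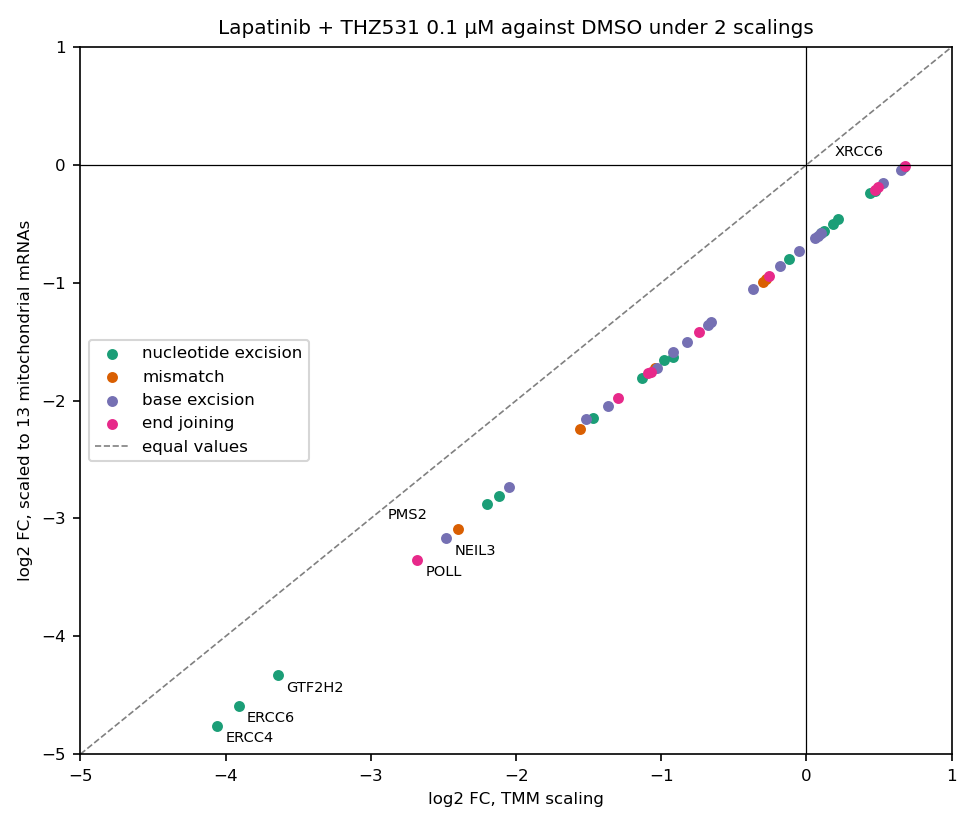
log2 FC of the 48 repair genes (points, coloured by pathway) in the lapatinib combination against DMSO with TMM scaling (x axis) and with scaling to the 13 mitochondrial mRNAs (y axis), with a dashed line of equal values. All points lie below the line by a similar distance, so that ERCC4, ERCC6 and GTF2H2 stay at the bottom and XRCC6 moves from 0.68 to −0.01.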

How the data were processed

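RNA was sequenced from 21 libraries of Hs578T cells, 3 for each of 7 groups. Per the submitters' processing notes, the reads were aligned to GRCh38 with HISAT2 (2.1.0) and counted per gene with featureCounts, and DESeq2 was used for differential expression. The authors deposited raw counts per gene, and all 21 columns were mapped by their labels. Of counts between 1 and 20, 61.6% to 66.4% were even, so part of the counts may count both ends of a fragment. Counts were halved in an alternative.

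Counts were fitted in edgeR (4.0.16, R 4.3.3) with filterByExpr, TMM scaling, 1 mean per group and the quasi-likelihood test, with Benjamini-Hochberg adjustment over 16036 genes. DESeq2 (1.42.0) was an alternative, beside other scalings and filters, the replicate number as a block and leaving out each library. On simulated data edgeR found 200 of 200 changed genes for the lapatinib combination against DMSO and called 7 unchanged genes, of 13433 genes. The simulation had few changed genes, large changes in both directions and a fixed dispersion, unlike the real comparison. It therefore does not test the scaling or the detection of small changes. Values in every library are given for the 2 lowest and the 1 highest called genes of each pathway in the lapatinib combination. The members, the second gene list and the tests were chosen with earlier results of these data known. Chi-square tests of replicate pairs (7.75 to 144 per degree of freedom) found no library deposited more than once within its group. Pairs of libraries from different groups were not tested. Gene positions and promoters come from RefSeq (GRCh38.p14), exon lengths from the GENCODE annotation. Depth, 97612207 to 112229052 counts, limits the precision of genes with few counts, such as NEIL1.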

Additional observations from a re-analysis of the deposited data

Results flagged for a closer look

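The effect of each inhibitor differed between cells with and without 0.1 μM THZ531, by the test of the interaction in edgeR. With lapatinib the interaction was negative for 25 of the 48 genes and positive for 8, against 32.0% and 28.2% of all genes, and with nilotinib it was negative for 25 and positive for 7, against 31.2% and 25.6%. As shares of the 48 genes these are 52.1 and 16.7% with lapatinib and 52.1 and 14.6% with nilotinib. Among the genes with values in every library, the lapatinib interaction on the log2 scale was −3.76 for ERCC6, −3.50 for ERCC4, −2.60 for NEIL3, −2.24 for POLL, −2.14 for PMS2, −2.14 for TDG, −1.53 for MLH3, −1.31 for DCLRE1C and −0.41 for MSH3. It was 0.75 for PARP1, 0.61 for XRCC6 and 0.58 for RAD23B. Scaled to the mitochondrial mRNAs, the numbers of positive interactions were 0 with lapatinib and 1 with nilotinib.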

How the results depend on the processing

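Of the alternative log2 FCs of single genes, 6143 kept their direction and their side of the threshold, 201 lost the call and 49 gained one. A further 53 changed sign for a gene not called in the main fit, and 30 reversed the sign of a called gene. Library-size scaling gave 13 genes lower (5 with TMM) with 0.1 μM THZ531, 5, 7 and 7 higher (9, 11 and 11) with the lapatinib combination, the nilotinib combination and 1.0 μM THZ531, 1, 2 and 2 nucleotide excision genes higher (4, 6 and 5), 8 and 6 base excision genes lower beyond 1 (5 and 3) with the lapatinib combination and 1.0 μM THZ531, 20 genes lower beyond 1 (13) with 1.0 μM THZ531, 1 gene lower (0) between the combinations and 5 positive lapatinib interactions (8). Upper-quartile scaling gave 10 genes lower with 0.1 μM THZ531. In the lapatinib combination it gave 14 genes higher, 7 nucleotide excision genes higher, 3 mismatch genes lower (5), 4 base excision genes higher (2) and 2 end-joining genes lower beyond 1 (4). It also gave 4 base excision genes higher (2) in the nilotinib combination, 1 mismatch gene lower beyond 1 (2) with 1.0 μM THZ531, 14 genes higher (9) between the THZ531 doses and 3 higher (5) in the nilotinib combination against 1.0 μM THZ531. Scaling to the 13 mitochondrial mRNAs gave 2 lower and 0 higher (5 and 1) with 0.1 μM THZ531, and 0 higher in each strong treatment, each pathway, between the doses (9) and for either combination against 1.0 μM THZ531 (4 and 5). With that scaling 14 and 13 nucleotide excision genes were lower (9 and 8) with the lapatinib combination and 1.0 μM THZ531, 10, 10 and 8 base excision genes were lower beyond 1 (5, 5 and 3) in the 3 treatments, and 24 genes, 8 of nucleotide excision and 4 of mismatch repair, were lower beyond 1 (13, 5 and 2) with 1.0 μM THZ531. Positive interactions were then 0 and 1 (8 and 7). The median of all genes in that scaling was −0.69, −0.63 and −0.55 in the 3 treatments, and the share of all genes called is not given. With 0.1 μM THZ531, 9 genes were lower with at least 10 counts in every library, with DESeq2 and with counts halved, and 11 lower and 2 higher with the compared groups alone. DESeq2 called 1 gene higher with nilotinib and 2 lower between the combinations. The compared groups alone gave 1 higher (4) in the lapatinib combination and 6 lower (12) and 1 higher (5) in the nilotinib combination against 1.0 μM THZ531.

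The reversed values with library-size scaling were −0.11 and −0.09 for XPA in the lapatinib and nilotinib combinations, −0.11 and −0.09 for ERCC2 in the nilotinib combination and 1.0 μM THZ531, and −0.05 for ERCC8 in the nilotinib combination. With the mitochondrial scaling XPA had −0.46 and −0.41, ERCC2 −0.42 and −0.36, ERCC8 −0.37 and −0.28, DDB1 −0.22, −0.07 and −0.08, GTF2H5 −0.24, −0.26 and −0.16, XRCC5 −0.21, −0.09 and −0.08, LIG1 −0.15 and −0.05, RAD23B −0.02 and −0.06, PRKDC −0.19 and −0.05, PARP1 −0.04, XRCC6 −0.01 and UNG −0.18. MSH3 with 1.0 μM THZ531 had 0.06 with upper-quartile scaling. Leaving out 1 library gave 3 to 8 genes lower and 0 to 1 higher with 0.1 μM THZ531, 2 to 5 and 3 to 6 higher in the lapatinib and nilotinib combinations against 1.0 μM THZ531 and 0 to 2 lower between the combinations.

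Same-numbered libraries deviated together with a mean correlation of 0.177 (−0.86 to 0.928) over 5160 genes, over 0.1 in 37 of 63 pairs, and 9 of 21 libraries correlated best with their own number. The replicate number is thus not known to pair the libraries. A replicate block gave 8 genes lower with 0.1 μM THZ531 and 1 lower between the combinations, and moved the edgeR adjusted p of NHEJ1 in the nilotinib combination to 0.0516. It changed no other call of the single genes compared.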
